A study of Mus musculus with 34 samples.

Results

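This comparison set the thoracic spinal cord of wild type mice 7 days after a moderate contusion against that of wild type controls labelled sham, across all expressed genes. Arrays were taken by title, 4 at day 7 and 4 sham, of 34 arrays in the series. Probe sets with a log2 signal of 4 or more in at least 4 of the 34 arrays counted as expressed, which left 24573 of 45101 for testing. Of these, 20926 named a single gene, and they stood for 11998 genes, each represented by its brightest probe set.

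The series asked how the cord of mice with and without trkB.T1, the truncated form of the TrkB receptor, responds to contusion over the days that follow. Both groups compared here carried the intact gene (trkB.T1 WT), were on a C57BL/6J background backcrossed for more than 20 generations, and were 8 to 12 weeks old. The sham arrays carry description codes that begin with Nav, and the sources used here do not say whether those animals were operated on. The same fit held wild type cords at day 1 (5 arrays) and day 3 (4 arrays) and 17 knockout arrays. They enter the filter and the pooled error behind every SE, p and call, whereas their levels are given below only where named. Each array was hybridised with biotinylated cRNA made from 1 µg of total RNA of the whole tissue piece. The labels call the arrays biological replicates, and their small number limits the precision of every value.

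A contusion bruises the cord without cutting it. Blood and damaged myelin are left in the lesion, and resident microglia and blood-derived macrophages clear them by phagocytosis. Astrocytes around the lesion become reactive, while fibroblast-like cells lay down a collagen-rich scar in its core. Myelin is rich in cholesterol, which phagocytes cannot break down and therefore store or export. Bulk tissue RNA was measured, so fewer cells of a type and less RNA per cell cannot be told apart in any of the results.

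The 8 arrays separated by condition. Correlations over tested probe sets were 0.987 to 0.991 among sham arrays, 0.983 to 0.992 among day 7 arrays and 0.910 to 0.953 between the groups. The first principal component held 79.6% of the variance and divided sham from day 7. Day 7 replicates 4 and 2 and sham replicate 3 stood furthest from their groups, with 2.01%, 1.93% and 1.56% of tested probe sets more than 1 log2 unit from the mean of the other 3 arrays, against 0.35% to 1.10% in the remaining arrays. A list of 17 skeletal muscle genes averaged 3.71, 8.62, 3.49 and 7.88 log2 units in sham replicates 1 to 4 and 5.63, 5.03, 9.35 and 3.98 in day 7 replicates 1 to 4. Sham replicates 2 and 4 and day 7 replicate 3 were thus high, and the groups overlapped. The source of the muscle signal was not tested. In day 7 replicate 3 the neutrophil list (9.34) was high as well, against 6.38 to 7.26 in the other day 7 arrays. RNA quality was read from the 3′ minus 5′ difference of control probe sets. For Gapdh it was 0.07 ± 0.03 in sham and 0.42 ± 0.21 at day 7 (SD, n = 4, exact two-sided permutation p = 0.0286, the smallest that 4 against 4 arrays allow). That of actin was 1.97 ± 0.11 and 1.85 ± 0.27 (p = 0.543, same exact test). Day 7 replicate 4 read 0.106 for Gapdh and 1.45 for actin, below the other day 7 arrays (0.456 to 0.570 and 1.93 to 2.02). The part of RNA quality in the results was not tested.

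Among the knockout arrays, the library labelled knockout sham replicate 2 went against its label. On probe set 1435196_at of Ntrk2 it read 8.59, whereas the other 16 knockout arrays all read 2.83 and the wild type arrays 8.64 to 9.92. On 1420838_at it read 9.46, against 3.12 to 4.94 in the other knockout arrays and 10.01 to 10.85 in wild type. It enters no difference between wild type groups, but it enters their pooled error and the knockout comparison, so the results it touches are given with and without it.

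**Figure D1:**
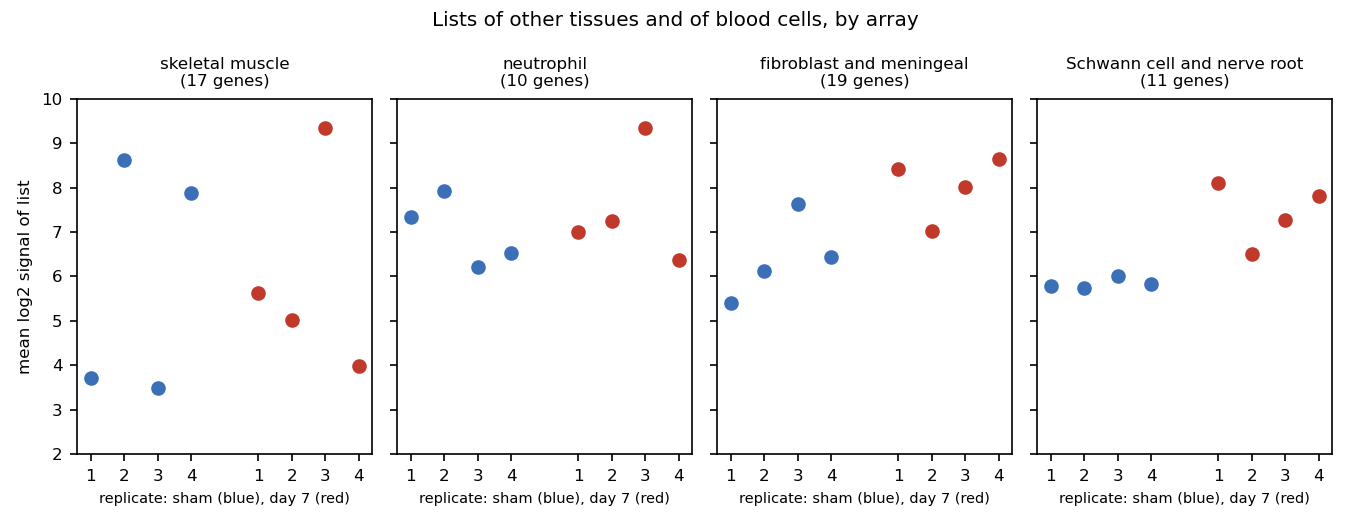
Mean log2 signal of 4 gene lists (vertical axis) in each sham array (blue) and each day 7 array (red), by replicate number. Skeletal muscle genes were high in sham replicates 2 and 4 and day 7 replicate 3, so that the groups overlapped, whereas all 4 day 7 arrays lay above all 4 sham arrays for the Schwann cell list (6.51 to 8.11 against 5.75 to 6.01).

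Most expressed genes differed between the injured and the control cord, 6959 of 11998 (58.0%). By limma with Benjamini-Hochberg adjustment over all tested probe sets (adjusted p under 0.05), 3043 genes were higher at day 7 (25.4% of those tested) and 3916 were lower (32.6%). Counts of gene lists against sham below are to be read beside these shares. On the level of probe sets 13142 of 24573 were called (53.5%), 5353 higher (21.8%) and 7789 lower (31.7%). Increases were larger than decreases. Among called genes the change was at least 2-fold for 1287 increases (10.7% of genes tested) and for 484 decreases (4.03%), and at least 16-fold for 104 increases (0.867%) and 0 decreases. In 2932 genes (24.4%) all 4 day 7 arrays lay above all 4 sham arrays, and in 3961 (33.0%) all lay below. The median gene differed by −0.06 on the log2 scale.

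A signal below 4 lies near the floor of these arrays and carries little information on the true level. The sham mean was under 4 for 376 of the 1287 genes that rose at least 2-fold, and the day 7 mean for 57 of the 484 that fell as much. For such genes the difference of the means is given together with the difference from the level of 4, written as "at least", since that part was measured on both sides. In 192 genes all sham arrays read under 4 and all day 7 arrays 4 or more, and in 52 genes the reverse held. Some genes, 461 in number, passed the filter only through arrays outside this comparison.

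**Figure D2:**
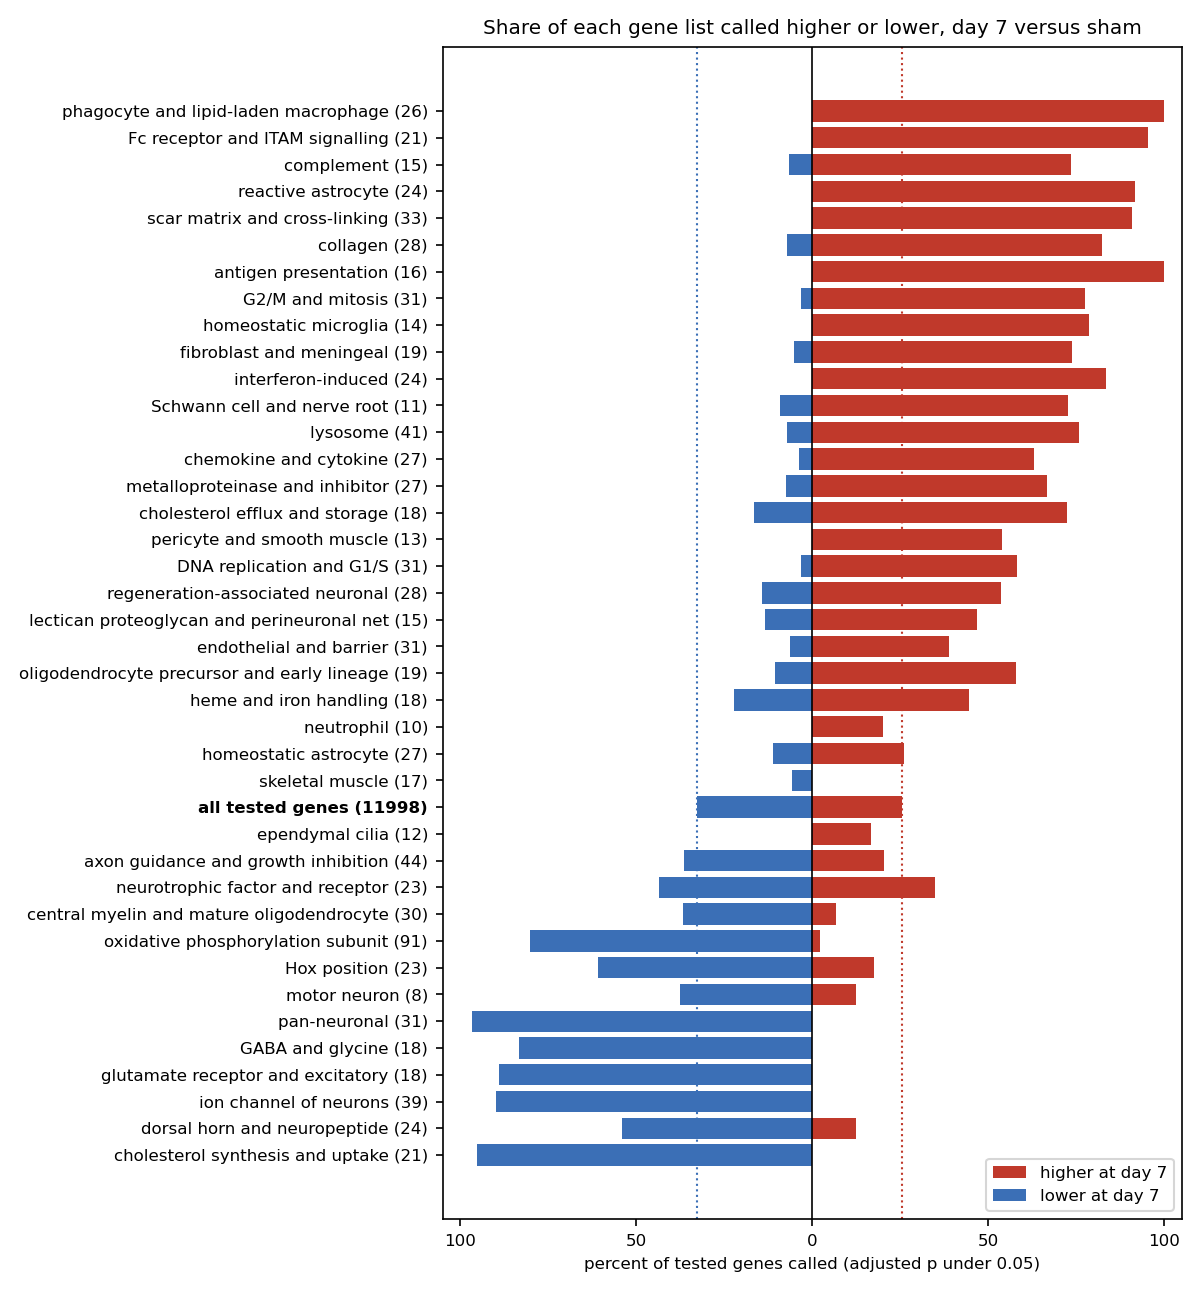
Percent of the tested genes of each list (number in parentheses) called higher (red, to the right) or lower (blue, to the left) at day 7 than in sham, ordered by median difference. Dotted lines mark the shares over all 11998 genes, 25.4% higher and 32.6% lower. Phagocyte, Fc receptor and complement lists lie at the top right, and neuronal, ion channel and cholesterol synthesis lists at the lower left.

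Phagocyte genes led the increases, and 10 of the 15 largest belonged to the list of phagocyte and lipid-laden macrophage genes. Like the other lists, it was chosen with earlier results of these data known, so its counts describe the data and test nothing. All 26 tested members of that list rose, against 25.4% of all genes, with a median difference of 5.04 (4.62 with genes under 4 in sham set to their bound). Gpnmb, a transmembrane glycoprotein of lipid-laden phagocytes, read 2.78, 3.12, 2.47 and 3.34 in the sham arrays and 13.53, 13.36, 13.27 and 13.61 at day 7. No other gene rose as much: the sham arrays were near the floor and the day 7 arrays among the brighter signals of the array, a difference of 10.52 ± 0.50 (SE, adjusted p = 2.56e-16, at least 9.44). Cd5l, a protein secreted by tissue macrophages, read 2.17, 2.61, 2.25 and 2.25 in the sham arrays and 9.54, 9.53, 9.70 and 9.73 at day 7 (7.30 ± 0.38, at least 5.62, adjusted p = 1.57e-15). Its 4 day 7 arrays lay within 0.20 of each other.

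Several receptors for lipids, sugars and dead cells shared this pattern. Clec7a, the beta-glucan receptor dectin-1, read 4.99, 4.84, 5.25 and 4.52 in the sham arrays and 11.95, 11.60, 11.80 and 12.03 at day 7, a difference of 6.95 ± 0.37 (adjusted p = 2.16e-15). Cd68, a lysosomal membrane protein of macrophages, read 5.14, 4.80, 5.55 and 4.34 in the sham arrays and 11.56, 11.23, 11.35 and 12.18 at day 7 (6.62 ± 0.29, adjusted p = 3.25e-17). In both genes even the lowest day 7 array lay more than 5 log2 units above the highest sham array. Cd36, a scavenger receptor for oxidised lipid, was more variable: the day 7 arrays read 11.25, 9.01, 9.60 and 10.80, the sham arrays 2.56, 4.54, 2.57 and 4.58, and the difference was 6.60 ± 0.60 (at least 6.16, adjusted p = 4.09e-10). Among the other leading members were Lgals3, the galectin of activated macrophages (6.75), Ms4a7, a membrane protein of macrophages (6.92, at least 6.55), the macrophage elastase gene Mmp12 (6.29, at least 4.69) and the class A scavenger receptor Msr1 (6.26, at least 5.06). The smallest increase of the list was in the fatty acid binding protein gene Fabp5 (0.60, adjusted p = 4.13e-05).

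**Figure D3:**
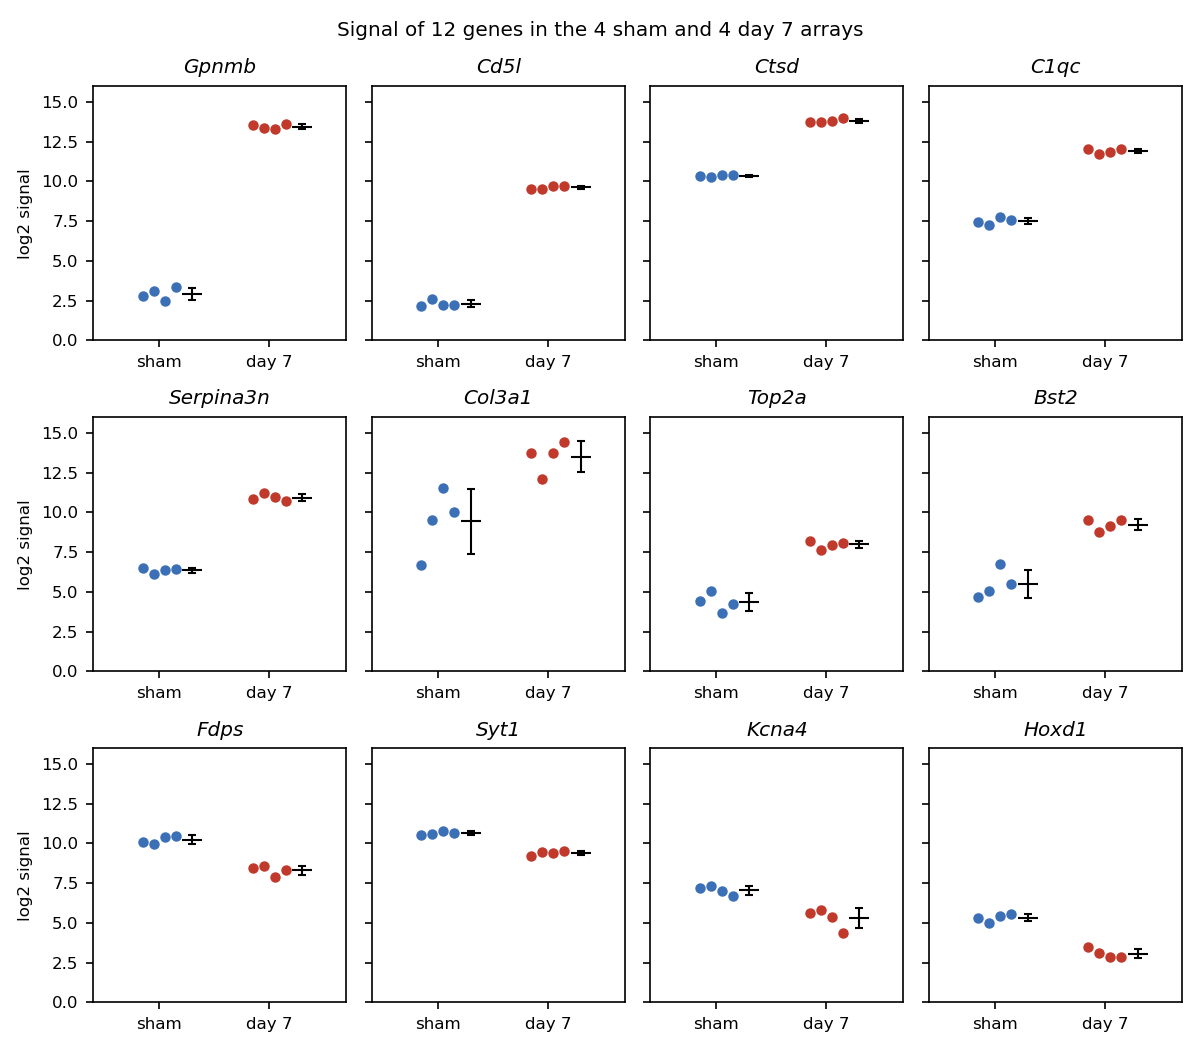
Log2 signal (vertical axis) of 12 genes in the 4 sham arrays (blue) and the 4 day 7 arrays (red), with the mean and SD of each group in black. Gpnmb goes from near the floor to above 13, Ctsd starts at a high level and rises by 3.45, Col3a1 is spread widely within both groups, and Fdps, Syt1, Kcna4 and Hoxd1 lie lower at day 7.

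Lysosomal genes rose from levels that were already high in the sham cord. Of 41 tested members, 31 were higher and 3 lower (median 1.23). The protease gene Ctsd (cathepsin D) read 10.33, 10.28, 10.42 and 10.39 in the sham arrays and 13.73, 13.73, 13.77 and 14.00 at day 7, a difference of 3.45 ± 0.13 (adjusted p = 3.06e-18). Ctss, the cathepsin of antigen-presenting cells, reached 14.88, 14.89, 14.90 and 15.07 at day 7 from 12.21, 12.20, 12.22 and 12.001 in sham (2.78 ± 0.13, adjusted p = 1.29e-16), which placed it among the brightest genes that rose at least 2-fold. Groups were far apart in both genes and the day 7 arrays close together. Others with large increases were Gusb, the glycosidase beta-glucuronidase (4.42), Ctsc, which activates granule proteases (3.95), Ctsh (3.78), another cathepsin, and Naglu, which degrades heparan sulfate (3.63, at least 3.59). Progranulin (Grn), a regulator of lysosomal function, rose by 3.26 ± 0.11 (adjusted p = 9.23e-20).

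Subunits of the proton pump that acidifies lysosomes went in different directions. Atp6v0d2, the pump subunit characteristic of macrophages and osteoclasts, read 2.23, 2.25, 2.23 and 2.46 in the sham arrays and 8.53, 7.68, 7.93 and 8.58 at day 7 (5.89 ± 0.35, at least 4.18, adjusted p = 3.96e-14). Its broadly expressed counterpart Atp6v0d1 read −0.07 (adjusted p = 0.431) and was not called, nor was the accessory subunit Atp6ap1 (0.01, adjusted p = 0.882). Atp6v1a (−0.47, adjusted p = 1.28e-04) and Atp6v1b2 (−0.46, adjusted p = 4.44e-04), subunits of the same pump that neurons also use for synaptic vesicles, were lower. The third member called lower was Gaa, the acid glucosidase (−0.27, adjusted p = 0.0248), which was not called without day 7 replicate 2 or without sham replicate 2 or 3 (adjusted p = 0.0601 to 0.077). Gaa was not called without the 3 arrays of high muscle signal either (adjusted p = 0.0935). The further hydrolases, Ctse (0.89, adjusted p = 0.23), Ctsf (−0.16, adjusted p = 0.416) and the sialidase Neu1 (0.01, adjusted p = 0.938), were not called. The transcription factor gene Tfeb, a master regulator of lysosomal genes, was not called (0.18, adjusted p = 0.148).

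Lysosomal promoters often carry the CLEAR element, bound by factors of the TFEB family. The letters TCACGTGA, which read the same on both strands, were searched from 250 bases before to 50 bases after each start in the RefSeq promoter table (GRCm38.p6), where 9677 of the 11998 genes had a promoter. They were present in 6 of 34 lysosomal genes with a promoter (17.65%), against 2.15% of all tested genes with one and 0.97% of all promoters in the table. The stretches below, all from genes that rose, are shown with the element in capitals.
Ctsd: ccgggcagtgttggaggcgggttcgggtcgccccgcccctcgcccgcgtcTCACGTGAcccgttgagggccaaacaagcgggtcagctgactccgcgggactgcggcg
Gla: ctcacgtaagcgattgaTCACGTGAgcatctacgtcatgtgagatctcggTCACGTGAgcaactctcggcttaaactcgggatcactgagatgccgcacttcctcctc
Ctsa: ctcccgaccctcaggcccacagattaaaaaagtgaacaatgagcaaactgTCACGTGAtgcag
The Ctsd stretch is chr7:142387869-142387976, the Gla stretch chrX:134601143-134601250 and the Ctsa stretch chr2:164833710-164833772, with Ctsd and Gla on the minus strand and Ctsa on the plus strand. Gla, the alpha-galactosidase gene, rose by 2.01 ± 0.19 (adjusted p = 7.27e-10) and Ctsa, a protective protein of other hydrolases, by 2.47 ± 0.13 (adjusted p = 5.11e-15). The element did not mark the genes that rose: the remaining genes with it were Atp6v1a, which fell, and Atp6v0d1 and the channel gene Mcoln1 (−0.07, adjusted p = 0.341), which were not called. Over all tested genes it stood in 2.02% of promoters of genes called higher and 2.60% of those not called.

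Complement genes of the classical pathway and their receptors rose. Of 15 tested members 11 were higher and 1 lower (median 2.77), and in 10 all day 7 arrays lay above all sham arrays. C1qa, C1qb and C1qc encode the chains of C1q, which tags debris and synapses for removal by microglia and macrophages. C1qa read 9.78, 9.42, 9.80 and 9.72 in the sham arrays and 13.66, 13.48, 13.68 and 13.81 at day 7, and its 3.98 ± 0.12 was, with C1qc and Serpina3n, the change with the smallest adjusted p of all genes (1.82e-20). C1qc read 7.46, 7.29, 7.75 and 7.56 in the sham arrays and 12.05, 11.73, 11.86 and 12.03 at day 7 (4.40 ± 0.13), and C1qb rose by 3.91 ± 0.13. In each of these genes the spread within a group was a small fraction of the distance between them. C3ar1, the receptor for the C3a fragment, read 2.87, 2.96, 3.82 and 2.72 in the sham arrays and 10.41, 10.06, 10.16 and 10.69 at day 7 (7.24 ± 0.25, at least 6.33, adjusted p = 1.54e-19). The integrin genes Itgb2 (4.93) and Itgam (3.69), which form complement receptor 3, and Serping1, the inhibitor of C1 (3.54), rose too. Properdin (Cfp), which stabilises the alternative pathway convertase, was called lower on its brighter probe set (−0.75, adjusted p = 2.41e-04) and higher on its dimmer one (1.81, adjusted p = 1.68e-04). The direction of this gene was therefore not settled by the array. The regulators Cd55 (−0.20, adjusted p = 0.532) and Cd59a (−0.01, adjusted p = 0.964) and the lectin pathway protease Masp1 (0.19, adjusted p = 0.31) were not called.

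Receptors for antibody and the signalling chain behind them rose nearly throughout. Of 21 tested members 20 were higher and 0 lower (median 3.98, or 3.34 at the bounds). Fcgr2b, the inhibitory Fc receptor, read 5.21, 4.56, 5.36 and 4.93 in the sham arrays and 11.06, 10.71, 10.89 and 11.25 at day 7 (5.96 ± 0.25, adjusted p = 1.60e-17). Trem2, a lipid-sensing receptor of microglia and macrophages, read 5.01, 5.16, 5.47 and 5.67 in the sham arrays and 10.52, 10.33, 10.45 and 10.87 at day 7 (5.21 ± 0.23, adjusted p = 5.17e-17). Both were well separated, with no day 7 array near a sham array. The partner of Trem2, the adaptor Tyrobp, rose by 4.33 ± 0.17, the adaptor Blnk by 4.52 ± 0.28 and the C-type lectin Clec4d by 4.59 ± 0.35 (at least 4.02). Fcgr4, an activating Fc receptor, rose by 4.42 ± 0.36 (at least 2.90), and Cd300lb, an activating receptor of myeloid cells, by 4.53 ± 0.40 (at least 2.93). The exception was Clec4e, a lectin paired with Clec4d, which stayed under 4 in all 8 arrays (0.05, adjusted p = 0.943).

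PU.1 is the lineage factor of macrophages and microglia, and its promoter sites hold a GGAA core. The letters GAGGAAGT on either strand were found in 4 of 20 promoters of the Fc receptor list, against 3.46% of all tested genes, 4.94% of those called higher, 2.80% of those called lower and 6.45% of those at least 2-fold higher. The neutrophil list, most of whose genes were not called, held it in 3 of 9 promoters, more than any other list, and the lysosomal list in 4 of 34. The list of phagocyte genes held it in 1 promoter of 19, that of Mmp12, and the complement list in 1 of 10, that of C1qc.
Fcgr4: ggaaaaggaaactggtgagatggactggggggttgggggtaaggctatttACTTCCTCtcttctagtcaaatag
Vav1: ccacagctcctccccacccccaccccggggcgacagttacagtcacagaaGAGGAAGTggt
C1qc: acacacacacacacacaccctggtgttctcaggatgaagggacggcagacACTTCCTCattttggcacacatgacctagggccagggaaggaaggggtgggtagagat
The capitals mark the element, which lies on the opposite strand in Fcgr4 and C1qc (chr1:171018852-171018925, chr17:57279039-57279099 and chr4:136893052-136893159, GRCm38.p6, with Fcgr4 and Vav1 on the plus strand and C1qc on the minus strand). Vav1, an exchange factor downstream of these receptors, rose by 3.53 ± 0.30 (at least 2.19).

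Tested genes of antigen presentation rose on both arms. All 16 tested members were called higher (median 2.19). Another 4 on the array lay below the filter and read under 4 in every sham and day 7 array. These were the class II regulator Ciita, the co-stimulators Cd40 and Cd80, and H2-Oa. B2m, the light chain of class I molecules, read 11.79, 11.93, 11.71 and 11.84 in the sham arrays and 14.12, 13.97, 14.03 and 14.19 at day 7 (2.26 ± 0.13, adjusted p = 2.10e-14). Cd86, a co-stimulator of T cells, rose by 4.0008 ± 0.19 (at least 2.78), and the class II chains H2-Eb1 and H2-Aa by 3.06 ± 0.48 (at least 2.14) and 2.96 ± 0.53. The immunoproteasome genes Psmb8 and Psmb9, which shape class I peptides, rose by 3.27 ± 0.21 and 3.16 ± 0.32 (the latter at least 2.30). Lymphocyte genes, by contrast, were hardly measurable. Of 28 marker genes of T, NK and B cells on the array, 27 lay below the filter, among them Cd3e, Cd4, Cd8a and Ms4a1. The co-receptor Cd28 was the only one tested, with 2.17, 2.17, 2.18 and 2.28 in the sham arrays and 5.86, 5.15, 4.76 and 6.14 at day 7 (3.27 ± 0.29, at least 1.47, adjusted p = 1.57e-10). In wild type its mean differed from sham by −0.02 at day 1 and 0.28 at day 3. It therefore passed the filter through day 7 arrays, the group where it was high, and its difference is a description rather than a test.

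Interferon-induced genes were higher as well, with 20 of 24 tested members called higher and 0 lower (median 1.56). Bst2, an antiviral membrane tether, read 4.67, 5.06, 6.75 and 5.49 in the sham arrays and 9.52, 8.76, 9.14 and 9.49 at day 7 (3.73 ± 0.34, adjusted p = 2.90e-10). Irf8, a transcription factor of the myeloid lineage, read 4.74, 4.68, 4.63 and 4.22 in the sham arrays and 8.83, 8.66, 8.80 and 9.13 at day 7 (4.29 ± 0.21, adjusted p = 5.00e-16). Sham replicate 3 was the highest sham array for Bst2 and for the list as a whole (5.06, 5.05, 6.09 and 5.62 in sham replicates 1 to 4, 7.21, 6.81, 7.46 and 7.77 at day 7). Usp18, which removes the ubiquitin-like ISG15 from proteins, rose by 3.26 ± 0.64 (at least 2.64), Oasl2 by 3.21 ± 0.52 (at least 2.36) and Ifit1, a sensor of foreign RNA caps, by 2.33 ± 0.64 (adjusted p = 0.00296). Ifit1 was not called without the 3 arrays of high muscle signal (adjusted p = 0.0522). Rsad2 (1.33, adjusted p = 0.0642), Ddx58 (0.83, adjusted p = 0.051), Mx1 (0.81, adjusted p = 0.107) and Stat2 (0.04, adjusted p = 0.88), all antiviral genes or their regulators, were not called.

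The interferon-stimulated response element, bound by the IRF family, was searched in the same way. The letters GAAA, any pair of bases and GAAA again, on either strand, stood in 13 of 20 promoters of the list (65.00%), against 3.66% of all tested genes and 3.44% of all promoters. Their share was 5.60% among genes called higher, 3.15% among those called lower and 8.17% among genes at least 2-fold higher. Bst2, Gbp2 and Ifit1 are shown, with each match in capitals.
Bst2: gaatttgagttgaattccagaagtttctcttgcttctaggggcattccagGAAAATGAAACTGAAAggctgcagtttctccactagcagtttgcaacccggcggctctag
Gbp2: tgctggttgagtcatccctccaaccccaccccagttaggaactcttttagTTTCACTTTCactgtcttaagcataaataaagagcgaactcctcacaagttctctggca
Ifit1: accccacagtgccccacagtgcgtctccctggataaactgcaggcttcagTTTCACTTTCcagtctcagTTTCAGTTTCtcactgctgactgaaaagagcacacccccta
These are chr8:71537543-71537652 (minus strand), chr3:142620554-142620662 and chr19:34640735-34640844 (both plus strand) of GRCm38.p6. In Bst2 overlapping matches form a longer repeat, and in Gbp2 and Ifit1 the matches lie on the opposite strand. Gbp2, an interferon-induced GTPase, rose by 2.23 ± 0.34 (adjusted p = 3.33e-06). A match did not by itself go with a call, since Rsad2, Ddx58 and Stat2 held it too.

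Genes that mark resting microglia rose rather than fell at this time. Of 14 tested members 11 were higher and 0 lower (median 1.97). Cx3cr1, the fractalkine receptor, read 8.51, 8.29, 8.50 and 8.42 in the sham arrays and 10.998, 11.10, 11.13 and 11.19 at day 7 (2.68 ± 0.20, adjusted p = 4.64e-12). Fcrls, a scavenger-like receptor of microglia, rose by 4.39 ± 0.22, Olfml3 by 3.36 ± 0.18, and the purinergic receptors Gpr34 and P2ry13 by 2.64 ± 0.27 and 2.27 ± 0.22. P2ry12, the ADP receptor that guides microglial processes, rose least (0.76 ± 0.32, adjusted p = 0.0493), and it was not called without day 7 replicate 1, 2, 3 or 4 or without sham replicate 1, 2, 3 or 4 (adjusted p = 0.0599 to 0.118). It was not called without the 3 arrays of high muscle signal (adjusted p = 0.189) or without the library labelled knockout sham replicate 2 (adjusted p = 0.0541). Siglech (0.54, adjusted p = 0.129) and the transcription factor genes Sall1 (0.42, adjusted p = 0.109) and Sall3 (−0.43, adjusted p = 0.106) were not called. Direct comparison with earlier injured cords showed the list higher at day 7: 12 of 14 members were higher than at day 1 (against 20.1% of all genes), with a median difference of 2.25, and 7 were higher than at day 3 (against 10.2%).

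Most neutrophil genes were not called at day 7. Of 10 tested members 2 were called higher and 0 lower, near the background share of 25.4%. S100a8, an abundant calcium-binding protein of neutrophils, read 12.52, 13.25, 10.93 and 11.12 in the sham arrays and 12.15, 12.07, 14.13 and 11.14 at day 7 (adjusted p = 0.605). Camp, a granule peptide, read 8.99, 9.90, 6.95 and 8.17 in the sham arrays and 8.20, 8.28, 10.89 and 7.14 at day 7 (adjusted p = 0.936). Day 7 replicate 3 was the highest array for both, and the groups overlapped. The called members were Csf3r, the receptor for granulocyte colony-stimulating factor (2.07 ± 0.24, adjusted p = 5.93e-08), and the collagenase gene Mmp8 (1.34 ± 0.54, at least 0.43, adjusted p = 0.0377), and both are also expressed by other myeloid cells. Mmp8 was not called without day 7 replicate 3 or without sham replicate 3 or 4 (adjusted p = 0.135 to 0.222), nor without the 3 arrays of high muscle signal (adjusted p = 0.18). All 3 tested red blood cell genes were not called (differences of −0.19 to 0.30), and that list too was highest in day 7 replicate 3 (6.99, against 5.08 to 5.88 in the other day 7 arrays and 4.98 to 6.36 in sham).

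Most chemokine and cytokine genes were above sham at day 7, while several early cytokines read near the floor. Of 27 tested members 17 were higher and 1 lower (median 1.21). Ccl3, an attractant of monocytes, read 2.34, 2.33, 2.56 and 2.34 in the sham arrays and 8.19, 7.99, 8.08 and 8.24 at day 7 (5.73 ± 0.36, at least 4.13, adjusted p = 1.01e-13). Cxcl16, the transmembrane chemokine of macrophages, rose by 3.97 ± 0.34, Ccl12 by 3.98 ± 0.35 (at least 3.36), Pf4 (platelet factor 4) by 3.71 ± 0.51 and Cxcl10, an interferon-induced attractant of T cells, by 3.12 ± 0.45. Il6 read 2.17, 2.17, 2.17 and 2.197 in the sham arrays and 2.19, 2.197, 2.197 and 2.17 at day 7, and Il1b differed by −0.07 (adjusted p = 0.906). Both stayed under 4 in all 8 arrays, as did the neutrophil attractant Cxcl2 and the cytokine Osm. These 4 genes passed the filter through other arrays, where they read higher, so any fall from those arrays was in part set by it. Against day 3, 8 members were lower and 2 higher (11.4% and 10.2% of all genes were), led by Ccl7 (−3.46 ± 0.41, adjusted p = 7.20e-07), Ccl2 (−3.44 ± 0.31, adjusted p = 9.24e-09) and Clcf1 (−2.85 ± 0.30, adjusted p = 8.66e-08). The member that fell against sham was Cx3cl1 (fractalkine), which neurons make (8.32, 8.29, 8.68 and 8.74 in the sham arrays and 7.75, 7.69, 7.39 and 7.35 at day 7, −0.96 ± 0.23, adjusted p = 9.14e-04).

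Genes that make cholesterol fell, and genes that export or store it rose. Of 21 tested genes of cholesterol synthesis and uptake 20 were lower and 0 higher, with a median of −1.38 against −0.06 over all genes. They made up 7 of the 10 decreases with the smallest p. Msmo1, which removes methyl groups from sterol intermediates, read 12.16, 12.09, 12.26 and 12.37 in the sham arrays and 10.73, 10.77, 10.35 and 10.36 at day 7 (−1.67 ± 0.10, adjusted p = 2.05e-14). Fdps, which makes farnesyl diphosphate, read 10.10, 9.93, 10.43 and 10.48 in the sham arrays and 8.45, 8.56, 7.86 and 8.34 at day 7 (−1.94 ± 0.14, adjusted p = 1.96e-12). The day 7 arrays lay below every sham array in both genes, and day 7 replicates 3 and 4 were the lowest for Msmo1. Idi1, a mevalonate pathway isomerase, fell by 1.80 (adjusted p = 8.79e-12), the sterol carrier Stard4 fell by 1.67 (adjusted p = 9.04e-12) and the decarboxylase Mvd fell by 1.56 (adjusted p = 1.11e-08). Fdft1, the first enzyme committed to sterols, fell by 1.40 (adjusted p = 4.57e-14) and Insig1, the sterol sensor that retains SREBP, fell by 1.5001 (adjusted p = 9.63e-13). Scap, the escort of SREBP, was not called (−0.06, adjusted p = 0.426).

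The fall was present at day 3 and deeper at day 7. Group by group, the list's median difference from sham was −0.03 at day 1, −0.96 at day 3 and −1.38 at day 7, values that share their sham arrays. Set directly against day 3, 10 of 21 members were lower at day 7 and 0 higher (11.4% of all genes were lower), and against day 1 these were 20 and 0 (21.2% of all genes were lower). Sc5d, a sterol desaturase, differed by −0.71 from its day 3 level (adjusted p = 5.63e-06).

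Among genes of cholesterol efflux and storage 13 of 18 were higher and 3 lower (median 0.85). Abca1, the pump that loads cholesterol onto apolipoproteins, read 9.93, 9.94, 9.82 and 9.51 in the sham arrays and 13.40, 13.19, 13.34 and 13.50 at day 7 (3.56 ± 0.15, adjusted p = 1.24e-17). Apoe, the main lipoprotein of the nervous system, read 11.93, 11.89, 12.13 and 12.05 in the sham arrays and 14.03, 14.08, 14.15 and 14.19 at day 7 (2.12 ± 0.16, adjusted p = 5.33e-12). Both were separated without overlap, and Apoe was among the brightest genes on the array. Ch25h, which makes an oxysterol that restrains SREBP, rose by 6.44 ± 0.23 (at least 4.98), Apoc1 by 4.41 ± 0.62, the lipid droplet coat Plin2 by 3.77 ± 0.23 and Mylip, a ligase that removes the LDL receptor, by 2.49 ± 0.20. The members that fell were Abcg4 (−1.10), Cyp46a1 (−0.73), which neurons use to excrete cholesterol, and Cyp27a1 (−0.44), with adjusted p = 3.56e-05, 0.00472 and 0.00997. Cyp46a1 was not called without the 3 arrays of high muscle signal (adjusted p = 0.0588).

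**Figure D4:**
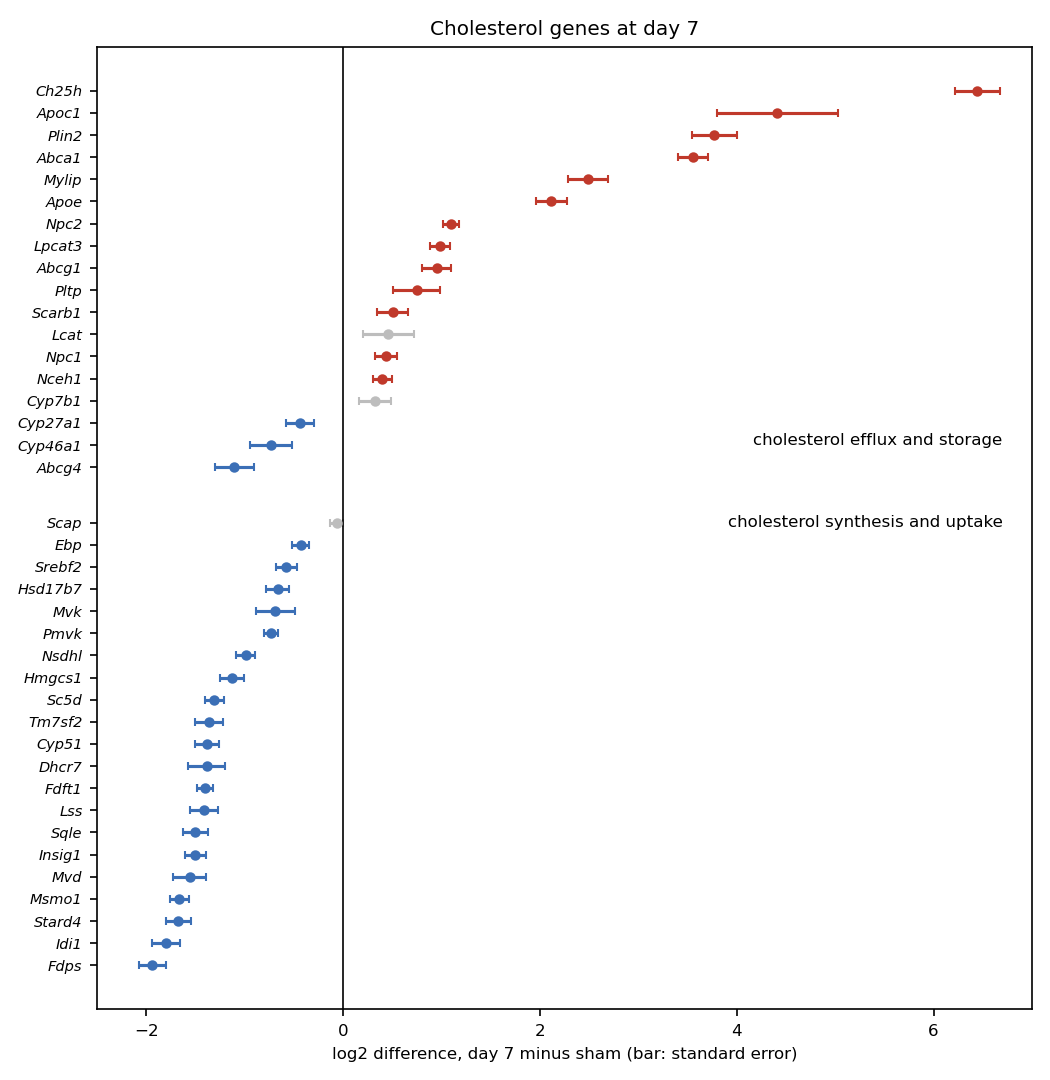
Log2 difference of day 7 from sham (horizontal axis, bar for the standard error) for 21 genes of cholesterol synthesis and uptake (lower block) and 18 of efflux and storage (upper block). Red marks genes called higher, blue lower and grey not called. The lower block lies left of 0, from −1.94 for Fdps to −0.06 for Scap, and most of the upper block lies to the right.

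The factor SREBP2 drives the synthesis genes through the sterol regulatory element. The letters TCACNCCAC on either strand were found in 1 of 17 list promoters (5.88%), that of Hmgcs1, against 1.34% of all tested genes and 1.24% of all promoters. This short form leaves out many known variants of the element, and 1 promoter does not show an enrichment. Some other lists held as large a share or a larger one, such as lysosomal (2 of 34) and pan-neuronal genes (2 of 21), while many held none. Among genes called lower it was 1.21%, and among those called higher 1.44%.
Hmgcs1: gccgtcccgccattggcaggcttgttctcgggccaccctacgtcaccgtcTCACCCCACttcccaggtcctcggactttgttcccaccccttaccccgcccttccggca
This stretch is chr13:119690164-119690272 (plus strand, GRCm38.p6), with the element in capitals. Hmgcs1, the synthase that feeds the mevalonate pathway, fell by 1.13 (adjusted p = 1.48e-08). Srebf2, the gene of SREBP2 itself, fell by 0.58 (adjusted p = 7.32e-05).

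Heme and iron genes were divided. Of 18 tested members 8 were higher and 4 lower (median 0.28), against 25.4% and 32.6% of all genes. Hmox1, which breaks down heme, read 2.89, 3.29, 3.12 and 3.62 in the sham arrays and 8.11, 7.02, 7.13 and 7.98 at day 7 (4.33 ± 0.34, at least 3.56, adjusted p = 2.04e-11). Slc11a1, an iron and manganese transporter of phagosomes, rose by 4.40 ± 0.27, Cp (ceruloplasmin, a ferroxidase) by 2.16 ± 0.47 and the iron exporter Slc40a1 by 1.35 ± 0.27. Hmox1 nonetheless differed by −4.03 from its day 3 level (adjusted p = 2.47e-09), among the 10 largest decreases between those time points. The members that fell were Tfrc, the transferrin receptor (−0.74), Hmox2 (−0.20), Fth1 (−0.18), the ferritin heavy chain, and, on its brighter probe set, the heme transporter Slc48a1. Hmox2 was not called without sham replicate 4 (adjusted p = 0.0604), nor without the 3 arrays of high muscle signal (adjusted p = 0.114). A second probe set of Slc48a1 was called higher (0.52 against −0.54).

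Reactive astrocyte genes stayed high. Of 24 tested members 22 were higher and 0 lower (median 2.66). Serpina3n, a serine protease inhibitor of reactive astrocytes, read 6.49, 6.14, 6.38 and 6.43 in the sham arrays and 10.82, 11.20, 10.96 and 10.72 at day 7 (4.57 ± 0.14, adjusted p = 1.82e-20). Vim, the intermediate filament vimentin, read 11.01, 11.39, 12.31 and 11.45 in the sham arrays and 14.59, 14.66, 14.66 and 14.78 at day 7 (3.13 ± 0.20, adjusted p = 9.45e-14). Groups did not overlap for either gene, and sham replicate 3 was the highest sham array for Vim. Timp1 rose by 5.74 ± 0.25 (at least 4.39), the pentraxin Ptx3 by 4.37 ± 0.21, the oncostatin M receptor Osmr by 4.12 ± 0.23, Cd109 by 3.82 ± 0.23 (at least 3.26) and the endotoxin co-receptor Cd14 by 3.81 ± 0.26. Gfap, the filament by which reactive astrocytes are usually recognised, rose by 1.54 ± 0.14 (adjusted p = 2.66e-10) from a level already high in sham. Compared directly, 13 of 24 members were lower at day 7 than at day 3 and 0 higher, against 11.4% and 10.2% of all genes.

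The transport and metabolism genes of resting astrocytes changed little. Of 27 tested members 7 were higher and 3 lower (median 0.12), a share of increases close to the 25.4% of all genes. Fabp7, a fatty acid binding protein of immature astrocytes, rose by 1.14 ± 0.27 (adjusted p = 8.91e-04), the glial transcription factor Sox9 by 0.74 ± 0.10 and the water channel Aqp4 by 0.72 ± 0.19. The glutamate transporters Slc1a2 (−0.09, adjusted p = 0.616) and Slc1a3 (0.00, adjusted p = 0.993) and the potassium channel Kcnj10 (0.02, adjusted p = 0.915) were not called. The members that fell were the GABA transporter Slc6a11 (−1.04), the glycine transporter Slc6a9 (−0.65) and S100b (−0.27).

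Matrix genes of the fibrotic scar rose, with wide spread between arrays of a group. Of 33 tested scar matrix genes 30 were higher and 0 lower (median 2.48), and of 28 collagens 23 were higher and 2 lower (median 2.19). Postn (periostin), a matrix protein of scars, read 3.95, 6.998, 4.44 and 6.78 in the sham arrays and 10.01, 8.49, 10.71 and 10.90 at day 7 (4.49 ± 0.86, adjusted p = 8.25e-05). Col3a1, a fibrillar collagen, read 6.67, 9.54, 11.51 and 10.01 in the sham arrays and 13.72, 12.12, 13.74 and 14.45 at day 7 (4.08 ± 0.78, adjusted p = 8.12e-05). Day 7 replicate 2 was the lowest day 7 array for both genes, and the highest sham array was replicate 2 for Postn and replicate 3 for Col3a1. Neither gene overlapped between groups. Sham replicate 3 was the highest and day 7 replicate 2 the lowest of its group in the fibroblast list also (5.40, 6.12, 7.62 and 6.45 in sham replicates 1 to 4, 8.42, 7.03, 8.01 and 8.65 at day 7). Lox, which cross-links collagen, rose by 4.28 ± 0.75 (at least 3.97), the small proteoglycans Lum and Fmod by 3.65 ± 0.63 and 3.1985 ± 0.63, fibronectin (Fn1) by 3.19 ± 0.50 and the matricellular Ccn1 by 3.16 ± 0.38. Col8a1 rose by 3.66 ± 0.65, Col5a1 by 3.24 ± 0.54 and Col1a1 by 2.97 ± 0.84. The collagens that fell were Col19a1 (−1.58, adjusted p = 1.88e-04) and Col25a1 (−1.10, adjusted p = 0.00135), which neurons express. Aspn did not pass (1.92, adjusted p = 0.074).

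Of 27 metalloproteinases, adamalysins and their inhibitors 18 were higher and 2 lower (median 1.09). Mmp12 led (10.01, 7.45, 7.91 and 9.39 at day 7, and 2.17, 2.17, 2.54 and 2.73 in sham), followed by Timp1, Adam8 (5.08 ± 0.29, at least 3.97), a protease of myeloid cells, and the collagenase Mmp13 (3.29 ± 1.34), which was not called without day 7 replicate 2, 3 or 4 or without sham replicate 1 or 3 (adjusted p = 0.051 to 0.138). Mmp9, the gelatinase of neutrophils, was not called (−0.12, adjusted p = 0.846). Of 19 fibroblast and meningeal genes 14 were higher and 1 lower (median 1.63), among them Tbx18 (2.31, at least 1.55), a transcription factor of mesenchymal cells, Igf2 (2.43), a growth factor of the meninges, and Fap (2.38). Without the 3 arrays of high muscle signal the count was 8. Thy1, made by neurons as well as fibroblasts, fell by 0.50.

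Genes of proteoglycans, perineuronal nets and associated matrix around axons and synapses went in both directions. Of 15 tested members 7 were higher and 2 lower (median 0.58), against 25.4% and 32.6% of all genes. Tnc (tenascin C) rose by 2.77 ± 0.27, the hyaluronan receptor Cd44 by 2.33 ± 0.16 and Vcan (versican) by 1.83 ± 0.13. The link proteins that hold perineuronal nets together fell: Hapln1 fell by 1.61 (adjusted p = 1.16e-05) and Hapln4 fell by 1.35 (adjusted p = 2.19e-05). Hapln1 read 8.16, 8.18, 7.93 and 8.23 in the sham arrays and 6.73, 6.90, 6.28 and 6.15 at day 7, without overlap. Bcan, the brevican core protein, was not called (−0.20, adjusted p = 0.215).

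Endothelial genes rose in a minority of cases. Of 31 tested members 12 were higher and 2 lower (median 0.57), against 25.4% and 32.6% of all genes. The number higher was 20 without day 7 replicate 2 and 7 without the 3 arrays of high muscle signal. Icam1, the adhesion molecule that leukocytes use to leave vessels, rose by 4.07 ± 0.27 (at least 2.81) and Vwf (von Willebrand factor) by 3.23 ± 0.51 (adjusted p = 7.37e-06). Cldn5, the tight junction claudin, read 8.58, 8.72, 8.65 and 8.19 in the sham arrays and 9.43, 8.22, 9.02 and 10.07 at day 7 (adjusted p = 0.0598) and was not called. Day 7 replicate 2 was its lowest day 7 array and overlapped the sham arrays. Apln, the ligand apelin, fell by 1.22 (adjusted p = 2.30e-09) and Plvap fell by 0.35 (adjusted p = 0.0127), the latter not called without the 3 arrays of high muscle signal (adjusted p = 0.256). Direct comparison with day 3 placed 21 of 31 members lower at day 7 and 2 higher, against 11.4% and 10.2% of all genes. Of 13 pericyte and smooth muscle genes 7 were higher and 0 lower, led by the actin-binding Tagln (3.72 ± 0.38) and Acta2 (1.96 ± 0.36), smooth muscle actin.

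Cell division was still above sham but well below its day 3 level. Of 31 tested genes of G2/M and mitosis 24 were higher and 1 lower (median 2.02, or 1.42 at the bounds). Of 31 genes of DNA replication 18 were higher and 1 lower (median 0.70). Top2a, the topoisomerase that untangles chromosomes, read 4.42, 5.05, 3.69 and 4.24 in the sham arrays and 8.22, 7.66, 7.97 and 8.11 at day 7 (3.64 ± 0.28, adjusted p = 1.22e-11). Mki67, a marker of cycling cells, read 5.17, 6.68, 4.20 and 5.73 in the sham arrays and 8.72, 8.04, 8.87 and 9.04 at day 7 (3.22 ± 0.47, adjusted p = 2.20e-06). Neither gene overlapped between groups. Pbk, a mitotic kinase, rose by 3.92 ± 0.32, Cdk1, the kinase that starts mitosis, by 3.36 ± 0.21 (at least 3.11), the helicase subunit Mcm3 by 2.67 ± 0.26 and the ribonucleotide reductase subunit Rrm2 by 2.58 ± 0.28. Against day 3 directly, 31 of 31 mitotic and 27 of 31 replication genes were lower (11.4% of all genes were). Of the mitotic genes, 21 averaged under 4 in sham and 9 at day 7, and of the replication genes 8 and 4. Members that low passed the filter through arrays where they read higher. Their fall from day 3 was thus in part set by the filter, and these counts describe the data and test nothing. Kif20a, a kinesin of cell cleavage, differed by −3.37 from its day 3 level (at least −3.07, adjusted p = 2.32e-11). The members that fell against sham were Anln (−0.63, adjusted p = 9.39e-06), which is also a gene of myelinating cells, and Ccne1 (−0.41, adjusted p = 6.85e-05), cyclin E1.

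Promoters of late cell cycle genes carry the cell cycle homology region, through which they are kept silent in resting cells. The letters TTTGAA on either strand stood in 20 of 26 promoters of the G2/M list (76.92%), against 13.91% of all tested genes and 17.89% of all promoters. In the DNA replication list it was 3 of 24 (12.50%).
Cdk1: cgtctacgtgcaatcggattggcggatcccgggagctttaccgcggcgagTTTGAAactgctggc
Top2a: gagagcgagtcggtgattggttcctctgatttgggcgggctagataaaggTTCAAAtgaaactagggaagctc
Mki67: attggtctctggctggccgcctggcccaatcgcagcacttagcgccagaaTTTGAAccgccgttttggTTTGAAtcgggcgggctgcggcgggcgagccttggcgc
The stretches end at the transcript start or 50 bases past the element (chr10:69352913-69352977, chr11:99024190-99024262 and chr7:135716440-135716545, all on the minus strand of GRCm38.p6), and capitals mark the element. Ndc80, Ttk, Plk1 and Kif4, mitotic genes that also held these letters, read under 4 in all 8 arrays and were not called. Racgap1 of the same list held them too and was not called, and Anln held them and was called lower. A match thus did not by itself go with an increase. Over all tested genes the letters were more frequent in promoters of genes called higher than in those called lower or not called.

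Neuronal genes fell almost without exception, by modest amounts. Of 31 tested pan-neuronal genes 30 were lower and 0 higher (median −0.70, against −0.06 for all genes). Syt1, the calcium sensor of vesicle release, read 10.52, 10.61, 10.79 and 10.68 in the sham arrays and 9.20, 9.49, 9.38 and 9.50 at day 7 (−1.26 ± 0.31, adjusted p = 0.00117). Rph3a (rabphilin), another vesicle protein, fell by 1.49 (adjusted p = 3.60e-07) and the intermediate filament Ina fell by 1.16 (adjusted p = 6.07e-06). All day 7 arrays of Syt1 lay at least 1 log2 unit below every sham array. The neurofilament chain Nefl fell by 0.36 and Nefh fell by 0.56 (adjusted p = 0.00335 and 0.00688), of which Nefh was not called without the 3 arrays of high muscle signal (adjusted p = 0.069). Syt4 was the only member not called (−0.01, adjusted p = 0.964).

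Receptors and channels followed the same direction. Of 18 glutamate receptor and excitatory genes 16 were lower and 0 higher (median −0.88), of 18 GABA and glycine genes 15 and 0 (median −0.87), and of 39 neuronal ion channels 35 and 0 (median −0.91). Kcna4, a potassium channel subunit of axons, read 7.18, 7.33, 6.98 and 6.69 in the sham arrays and 5.63, 5.83, 5.38 and 4.38 at day 7 (−1.74 ± 0.28, adjusted p = 8.41e-06). Grin2b, a subunit of the NMDA receptor, fell by 1.51 (adjusted p = 3.57e-04) and Grin2c fell by 1.74 (at least −0.45, adjusted p = 5.45e-08). Glra3, a glycine receptor subunit of the dorsal horn, fell by 1.55 (adjusted p = 0.00123), and Kcnj9, a G protein-gated potassium channel, fell by 1.52 (adjusted p = 0.00218). Without the 3 arrays of high muscle signal 9 of the GABA and glycine genes were called lower. The sodium channel Scn9a of sensory neurons (0.31, adjusted p = 0.153) and the pacemaker channel Hcn2 (−0.12, adjusted p = 0.301) were not called.

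Peptides of the dorsal horn were among the largest decreases, with exceptions. Of 24 tested genes 13 were lower and 3 higher (median −0.92), and 8 were lower without the 3 arrays of high muscle signal. Nmu (neuromedin U) read 6.59, 6.37, 6.98 and 6.85 in the sham arrays and 4.58, 4.40, 4.51 and 4.52 at day 7 (−2.1959 ± 0.34, adjusted p = 6.25e-06). Tac2, which encodes neurokinin B, read 9.34, 9.62, 9.99 and 9.74 in the sham arrays and 7.42, 6.86, 7.97 and 8.05 at day 7 (−2.10 ± 0.72, adjusted p = 0.0156). Both fell without overlap. Calb1, a calcium-binding protein of superficial neurons, fell by 1.45 (adjusted p = 0.00359) and Pnoc, the nociceptin precursor, fell by 1.38 (adjusted p = 2.44e-04). Crh, the corticotropin-releasing hormone, rose by 2.30 ± 0.29 (adjusted p = 1.60e-07), as did the injury-induced peptides Adcyap1 (1.27 ± 0.20) and Gal (0.88 ± 0.20). Tac2 (adjusted p = 0.073) and Gal (adjusted p = 0.0553) were not called without those 3 arrays. Of 8 motor neuron genes 3 were lower and 1 higher, against 32.6% and 25.4% of all genes. Ache, which splits acetylcholine, fell by 0.98, and Ngfr rose. The defining enzyme Chat and the transporters Slc18a3 and Slc5a7 lay below the filter.

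Other large decreases belonged to none of the lists. Cpne4, a calcium-dependent membrane-binding protein of neurons, read 6.18, 6.22, 6.45 and 6.70 in the sham arrays and 3.25, 3.999, 4.11 and 4.02 at day 7 (−2.54 ± 0.33, at least −2.38, adjusted p = 4.05e-07). Dao, the D-amino acid oxidase of hindbrain and cord astrocytes, read 5.81, 5.65, 5.32 and 6.12 in the sham arrays and 3.11, 3.58, 3.94 and 3.82 at day 7 (−2.11 ± 0.17, at least −1.73, adjusted p = 4.98e-11). Day 7 arrays of both were at or under 4.11, below every sham array. Hes5, a repressor downstream of Notch, fell by 2.06 (at least −1.16) and Trhde, which degrades thyrotropin-releasing hormone, fell by 1.94 (at least −0.85). The muscle gene Smyd1 also appears among the 15 largest decreases (−2.0039, adjusted p = 0.00374), beside the other muscle genes that varied from array to array. It was not called without the 3 arrays of high muscle signal (adjusted p = 0.0873).

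Genes of the regeneration response of injured neurons rose in part. Of 28 tested members 15 were higher and 4 lower (median 0.58). Sprr1a, a small proline-rich protein induced in axotomised neurons, read 2.66, 2.66, 2.25 and 2.55 in the sham arrays and 9.67, 9.08, 10.10 and 9.33 at day 7 (7.01 ± 0.36, at least 5.55, adjusted p = 1.39e-15). Atf3, the injury-induced transcription factor, read 2.54, 2.28, 3.70 and 3.41 in the sham arrays and 7.80, 7.37, 7.82 and 7.94 at day 7 (4.75 ± 0.34, at least 3.73, adjusted p = 2.02e-12). Both went from the floor to a clear signal in all 4 arrays. Tubb6, a tubulin, rose by 4.01 ± 0.31 and the small heat shock protein Hspb1 by 2.87 ± 0.23. Gap43, the growth cone protein, was not called (0.22, adjusted p = 0.0824). The growth-associated Basp1 (−0.20), Stmn4 (−0.34), Stmn1 (−0.57) and Cacna2d1 (−0.91) fell. Basp1 was not called without day 7 replicate 3 or 4 or without sham replicate 3 (adjusted p = 0.0503 to 0.0604), and Stmn4 was not called without day 7 replicate 4 or without sham replicate 4 (adjusted p = 0.0596 to 0.0644). Neither was called without the 3 arrays of high muscle signal (adjusted p = 0.126 and adjusted p = 0.0739). Many of these genes are also expressed by glia and macrophages, and the array does not tell the source.

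Of 23 tested neurotrophic factors and receptors 8 were higher and 10 lower (median −0.20), against 25.4% and 32.6% of all genes. Igf1, a growth factor made by macrophages and microglia, rose by 3.41 ± 0.58 (adjusted p = 2.11e-05), the hepatocyte growth factor receptor Met by 1.84 ± 0.22 and the p75 receptor Ngfr by 1.25 ± 0.42. Ngfr was not called without day 7 replicate 4 (adjusted p = 0.0578), nor without the 3 arrays of high muscle signal (adjusted p = 0.0558). Fgf9 fell by 1.22 (adjusted p = 2.67e-05) and Vegfa, a vessel growth factor, fell by 0.92 (adjusted p = 8.12e-05). Bdnf, the ligand of TrkB, was not called (−0.46, adjusted p = 0.183). Ntrk2, which encodes TrkB, gave different answers on its 6 tested probe sets. On 1458622_at the sham arrays read 11.10, 11.14, 11.09 and 11.10 and the day 7 arrays 9.95, 10.16, 9.94 and 9.997, a difference of −1.10 ± 0.21 (adjusted p = 8.54e-05). The falls on 1437560_at (−1.23, adjusted p = 3.33e-05), 1435305_at (−0.90, adjusted p = 2.24e-04) and 1446712_at (−0.38, adjusted p = 0.00539) were also called. On 1420838_at (0.25, adjusted p = 0.776) and 1435196_at (0.02, adjusted p = 0.987) there was no call, with standard errors of 0.66 and 0.67 in a fit that holds the library labelled knockout sham replicate 2, and none without it (0.25 ± 0.29, adjusted p = 0.498, and 0.02 ± 0.10, adjusted p = 0.908). Their day 7 means were 10.64 ± 0.16 and 9.74 ± 0.12 (SD, n = 4), against 10.39 ± 0.21 and 9.72 ± 0.11 in sham. Both lost their signal in 16 of the 17 knockout arrays (3.12 to 4.94 on 1420838_at, 2.83 on 1435196_at). The probe sets that fell kept theirs in knockout sham, with means of 11.31 (1458622_at), 7.91 (1437560_at), 10.59 (1435305_at) and 4.20 (1446712_at). In wild type sham those means were 11.11, 7.69, 10.33 and 4.21. Which transcript each probe set reads was not tested.

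Axon guidance genes fell somewhat more often than they rose. Of 44 tested members 9 were higher and 16 lower (median −0.19), shares near those of all genes, and 8 were lower without the 3 arrays of high muscle signal. The semaphorin receptors Plxnd1 (2.38 ± 0.25) and Nrp1 (1.62 ± 0.19) rose, and the repellent Slit1 (−1.32 ± 0.25), its receptor Robo2 (−1.07 ± 0.17) and the netrin receptor Dcc (−1.02 ± 0.20) fell. The myelin inhibitor gene Rtn4 (Nogo) was not called (0.02, adjusted p = 0.789).

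Central myelin genes moved little. Of 30 tested members 11 were lower and 2 higher (median −0.23), against 32.6% and 25.4% of all genes. The share of decreases was thus near that of all genes. The number lower was 7 without day 7 replicate 4, 7 with the replicate block and 7 without the 3 arrays of high muscle signal. Fa2h, which makes the hydroxylated lipids of myelin, read 10.17, 10.18, 10.25 and 10.40 in the sham arrays and 9.31, 9.52, 9.16 and 9.03 at day 7 (−0.9954 ± 0.20, adjusted p = 1.68e-04). Opalin, a membrane protein of mature oligodendrocytes, fell by 0.72 (adjusted p = 6.80e-05) and the myelin proteolipid Mal fell by 0.66 (adjusted p = 1.83e-06). Cnp (−0.05, adjusted p = 0.607), Cldn11 (0.04, adjusted p = 0.801) and the transcription factor Sox10 (0.07, adjusted p = 0.597) were not called.

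Genes of oligodendrocyte precursors rose more often, with 11 of 19 higher and 2 lower (median 0.48), against 25.4% and 32.6% of all genes. Without the 3 arrays of high muscle signal 5 were higher. Cspg4, the NG2 proteoglycan of precursors, read 5.78, 5.75, 6.34 and 6.06 in the sham arrays and 7.72, 7.52, 7.37 and 7.56 at day 7 (1.56 ± 0.17, adjusted p = 2.17e-08). Matn4 rose by 1.66 ± 0.27 and Tmem100 by 1.03 ± 0.20. Cspg4 did not overlap between groups. The adhesion molecule Pcdh15 fell by 0.65 (adjusted p = 8.55e-05), and the lineage factor Olig1 fell by 0.23 (adjusted p = 0.037). Olig1 was not called without day 7 replicate 1, 3 or 4 or without sham replicate 1, 3 or 4 (adjusted p = 0.0507 to 0.14), nor without the 3 arrays of high muscle signal (adjusted p = 0.113). Its relative Olig2 (−0.19, adjusted p = 0.317) was not called. Gpr17, a receptor of differentiating precursors, showed a larger difference without passing (1.45, adjusted p = 0.123).

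Schwann cell and nerve root genes rose, with 8 of 11 higher and 1 lower (median 1.25). Pmp2, a myelin protein of peripheral nerve, read 2.82, 2.67, 3.997 and 2.53 in the sham arrays and 9.14, 3.72, 6.85 and 7.34 at day 7 (3.76 ± 0.96, at least 2.76, adjusted p = 0.00169). Egr2, the factor that drives Schwann cell myelination, read 3.63, 2.80, 3.45 and 3.84 in the sham arrays and 8.06, 7.23, 7.27 and 8.04 at day 7 (4.22 ± 0.36, at least 3.65, adjusted p = 1.21e-10). Day 7 replicate 2 was the lowest day 7 array for both, and for Pmp2 it fell below sham replicate 3, so that the groups overlapped. The member that fell was Mal2 (−1.54, adjusted p = 4.44e-04), an epithelial and neuronal relative of Mal. How much nerve root each tissue piece held was not measured.

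Genes of mitochondrial respiration fell by small but uniform steps. Of 91 tested subunits and assembly factors of the respiratory chain and ATP synthase 73 were lower and 2 higher (median −0.31), and 0 fell by 2-fold or more with a call. Atp5b, the catalytic subunit of ATP synthase, read 13.86, 13.83, 13.80 and 13.82 in the sham arrays and 13.35, 13.44, 13.30 and 13.29 at day 7 (−0.48 ± 0.05, adjusted p = 1.99e-08). Ndufaf5, an assembly factor of complex I, fell most among those called (−0.86 ± 0.13, adjusted p = 2.50e-06). The members that rose were Cox6b2 (1.87 ± 0.22, at least 1.38) and Atp5g2 (0.24 ± 0.09), the latter not called without day 7 replicate 1 or 4 or without sham replicate 1 or 2 (adjusted p = 0.0549 to 0.0996).

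Hox genes, which keep a record of position along the body axis, fell more often than they rose. Of 23 tested members 14 were lower and 4 higher (median −0.41). The 4 that rose were Hoxd10, by 3.2045 ± 1.07 (at least 1.53, adjusted p = 0.0132), Hoxa10, by 1.86 ± 0.35 (5.82e-05), Hoxc10, by 1.24 ± 0.27 (3.10e-04), and Hoxd9, by 0.70 ± 0.26 (0.0257). Hoxa10, Hoxc10 and Hoxd10 are the tested members of 1 posterior paralogue group, whereas the relatives of Hoxd9 fell (Hoxa9 −0.34 and Hoxc9 −0.66) or were not called (Hoxb9 −0.61, adjusted p = 0.155). Hoxd10 read 2.35, 2.43, 2.17 and 2.35 in the sham arrays and 7.18, 3.54, 5.98 and 5.41 at day 7. All its sham arrays lay near the floor, and day 7 replicate 2 was well below the other day 7 arrays. Hoxd10 was not called without day 7 replicate 1 (adjusted p = 0.0562), Hoxd9 was not called without day 7 replicate 1 or 2 or without sham replicate 3 (adjusted p = 0.0509 to 0.161), and Hoxa9 was not called without day 7 replicate 1 or 3 or without sham replicate 1 or 2 (adjusted p = 0.0505 to 0.0844). Hoxd10 (adjusted p = 0.091) and Hoxa9 (adjusted p = 0.113) were not called without the 3 arrays of high muscle signal either. Among the decreases were Hoxd1 (−2.26 ± 0.17, at least −1.33, adjusted p = 4.64e-12), Hoxb6 (−1.31 ± 0.30) and Hoxa7 (−1.15 ± 0.19). The cord segment taken for each array is not given beyond thoracic, and position and condition cannot be told apart for these genes.

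Motile cilia genes of ependymal cells were poorly measured: 21 of 33 on the array lay below the filter. Of 12 tested 2 were higher and 0 lower, against 25.4% and 32.6% of all genes. Mia rose by 2.71 ± 0.49 (adjusted p = 3.84e-05). Foxj1, the master regulator of motile cilia, was not called (0.01, adjusted p = 0.962).

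Set directly against day 3, day 7 cords differed in 1228 genes that were higher (10.2%) and 1365 that were lower (11.4%), together 21.6%, and in 4712 probe sets (19.2%). Mmp12 rose further (4.56 ± 0.62, adjusted p = 5.33e-06), as did Atp6v0d2 (5.10 ± 0.35, at least 4.18, adjusted p = 3.52e-11) and the endolysosomal channel Mcoln3 (4.33 ± 0.17, at least 2.75, adjusted p = 1.09e-16). Cst7 (cystatin F), an inhibitor of lysosomal proteases, rose by a further 3.66 ± 0.34 and Hpse (heparanase) by 3.69 ± 0.35 (at least 3.37). Lysosomal genes were higher in 27 of 41 cases and lower in 0. Arg1, an enzyme of wound macrophages, went the other way. It read 9.26, 6.53, 7.71 and 7.16 at day 7, and its −4.17 ± 0.44 from day 3 (adjusted p = 1.16e-07) was the largest decrease, although it stayed 5.13 above sham (at least 3.66). Day 7 replicate 1 was the highest of those arrays. Lrg1, a secreted acute phase glycoprotein (−3.28 ± 0.32), and Crym (−2.69 ± 0.30), a thyroid hormone-binding protein, also fell from day 3.

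Against day 1, 2407 genes were higher (20.1%) and 2538 lower (21.2%), together 41.2%, and 9049 probe sets differed (36.8%). Gpnmb (6.11), Cd5l (6.9980, at least 5.62), Apoc1 (5.05) and Ms4a7 (5.20) were among the 10 largest increases, with adjusted p of 3.56e-11, 4.67e-15, 5.81e-08 and 7.09e-12. Il6 (−4.11, at least −2.30, adjusted p = 5.14e-06), Cxcl2 (−4.84, at least −3.17, adjusted p = 3.05e-06), Cxcl3 (−6.40, at least −4.63, adjusted p = 3.01e-09) and the prostaglandin synthase Ptgs2 (−3.76, adjusted p = 4.92e-07) were among the 10 largest decreases. In 2 of the 5 day 1 arrays the source and time fields name another group than the title, and the title was followed. Those fields place day 1 replicate 1 in wild type day 7 and replicate 2 in wild type sham, the 2 groups compared in this report. Grouping by them changed the probe sets called between day 7 and sham from 13142 to 10434.

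**Figure D5:**
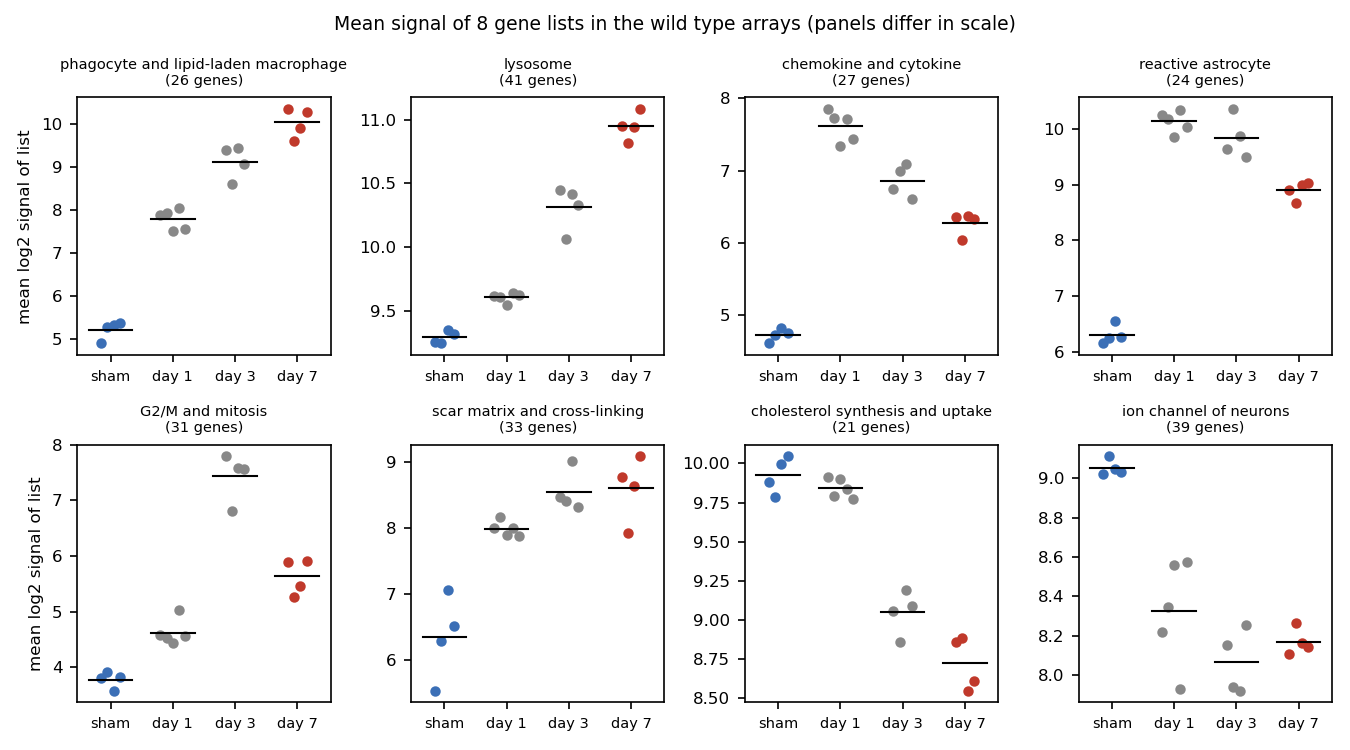
Mean log2 signal of 8 gene lists (vertical axis, scale differs by panel) in each wild type array by time (sham blue, day 1 and day 3 grey, day 7 red), with the group mean as a line. Phagocyte and lysosome lists are highest at day 7, chemokines and reactive astrocyte genes are lower than at the earlier times but above sham, mitosis peaks at day 3, and cholesterol synthesis is lowest at day 7.

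The day 7 response was tested against that of knockout mice, in which 2752 genes were higher (22.9%) and 3612 lower (30.1%) than in their own sham group. A difference in response passed for 1 gene of 11998 (0.00833%), on 1 probe set (0.00407%), and 903 probe sets had an unadjusted p under 0.05. That gene was Cnmd (chondromodulin), an inhibitor of vessel growth. It read 3.55, 3.96, 3.68 and 3.73 in the sham arrays and 5.41, 4.52, 4.66 and 4.67 at day 7 in wild type, a difference of 1.08 ± 0.22 (at least 0.81), against −0.85 in the knockout (interaction 1.93 ± 0.31, adjusted p = 0.0181). Without the library labelled knockout sham replicate 2, the knockout differences were 2528 genes higher and 3099 lower, and the difference in response passed for Cnmd (2.19 ± 0.27, adjusted p = 1.39e-04) and for Egr2 (2.90, adjusted p = 1.28e-04, against 2.28 and adjusted p = 0.523 with it). Leaving out single arrays of the 4 groups gave counts of 0 to 3 probe sets, with 0 without wild type day 7 replicate 1, wild type sham replicates 1 or 3, knockout day 7 replicates 1, 3 or 4, or knockout sham replicates 3 or 4. A gene that misses this test is not shown to respond alike in both genotypes.

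Within day 7, the genes that varied most from cord to cord were those of skeletal muscle. The 10 largest SDs at day 7 belonged to Mb, Smpx, Mylpf, Tnnt3, Ttn, Sln, Myl1, Myh1, Tnnc2 and Myh4, all muscle genes. Myh4, a fast myosin heavy chain, read 3.65, 8.45, 2.69 and 8.54 in the sham arrays and 5.19, 3.26, 9.67 and 2.64 at day 7. Day 7 replicate 3 and sham replicates 2 and 4 were high, and the difference between the groups was −0.64 (adjusted p = 0.797). Of 17 muscle genes 0 were called higher and 1 lower, the latter Pvalb (−1.11, adjusted p = 0.0034), which neurons also express. The median SD over genes was 0.127 at day 7 and 0.113 in sham.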

How the data were processed

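Total RNA of 34 spinal cord pieces was measured on arrays of 45101 probe sets. The deposited values are log2 signals that the authors made with GCRMA, per the submitters' processing notes, which give no version, and the samples' biology and RNA input are as the labels state them. GCRMA adjusts for background and scales arrays that are run together to a common distribution, so changes are relative to the bulk of the signal. Whether all 34 arrays were run together is not stated in the sources used here. Low GCRMA values pile up near a floor.

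From these values, 64 array control probe sets were left out and 24573 probe sets with a log2 signal of at least 4 in at least 4 of the 34 arrays were tested. A linear model with 1 coefficient for each of 8 groups of time and genotype by title was fitted with limma 3.58.1 in R 4.3.3 (lmFit and eBayes), and Benjamini-Hochberg adjustment ran over all tested probe sets, with a threshold of 0.05. The labels state biological replicates without naming animals, so p-values measure the spread between these arrays. A gene is represented by its brightest probe set over the 34 arrays. Of the tested probe sets 20926 had 1 gene symbol, 568 several and 3079 none, and only the first were named.

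Members and the 41 gene lists were chosen with earlier results of these data known. Named genes were taken from the 15 largest differences and the 10 smallest p in each direction, the 10 brightest among those at least 2-fold higher, the 10 largest in each direction for the other contrasts, the 10 largest SDs at day 7, Ntrk2, and in each list the 6 largest differences, those against its majority and those not called. Not every gene that meets these rules is named in the text. Chosen after their values were seen were Atp5b, Ctsa, Fabp5, Gbp2, Gfap, Gla, Hmgcs1, Hoxa9, Hoxc9, Nefl, P2ry12, Serping1, Srebf2, Tyrobp, Vav1 and Vegfa.

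Promoters come from RefSeq (GRCm38.p6) and were matched by Entrez gene identifier. A gene with several promoters, as 2063 tested genes have, held a motif if any of them did. Same-numbered sham and day 7 arrays did not deviate together (r = −0.079, −0.036, −0.255 and −0.083), so no pairing was used. Of the 2 day 1 wild type arrays with conflicting labels, replicate 1 correlated with its title's group at 0.796 and replicate 2 at 0.689, and with no other time above 0.159 and 0.130 in wild type. The fit was also tested on simulated data for wild type day 7 versus sham. Of 24573 simulated probe sets 200 were changed, 40 of each size. The fit called 50.0%, 77.5% and 100.0% of increases of 0.5, 1 and 2 log2 units. It called 35.0% and 87.5% of decreases of 0.5 and 1, and 7 of its 147 calls were false. In the real comparison 53.5% of probe sets were called. The adjustment depends on that share, so these rates do not give the sensitivity of the real comparison.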

Additional observations from a re-analysis of the deposited data

Results flagged for a closer look

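Among 108 groups of 4 arrays given array by array, 10 held an array far from the other 3, where chance marks about 1 group in 20. Arg1 read 3.012 in sham replicate 1 against 2.363 to 2.381 in the other sham arrays. Atp6v0d2 read 2.462 in sham replicate 4, Ccl3 2.563 in sham replicate 3, Cd28 2.276 in sham replicate 4 and Il6 2.197 in sham replicate 4, all below 4. Ctss was the lowest of its sham group in replicate 4 (12.001 against 12.196 to 12.223) and the highest of its day 7 group in replicate 4 (15.065 against 14.875 to 14.904). Ctsd was likewise highest in day 7 replicate 4 (13.999 against 13.727 to 13.771). Day 7 replicate 1 was lowest for Cpne4 (3.252 against 3.999 to 4.109) and highest for Cnmd (5.406 against 4.523 to 4.667). The response of Cnmd differed between the genotypes, with an interaction of 1.93 (limma, wild type minus knockout), or 2.19 without the library labelled knockout sham replicate 2, which went against its label on Ntrk2.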

How the results depend on the processing

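The number of probe sets called between day 7 and sham (13142) was 13561 in a fit of the 8 arrays alone, 13382 without a filter, 11460 with a filter at 6, 13241 with arrays centred on their medians, 13413 after quantile normalization, 15417 with array weights, 10434 with the conflicting day 1 arrays grouped by source and time, 9663 without the 3 arrays of high muscle signal, and 13086 without the library labelled knockout sham replicate 2, both chosen after seeing the data. Leaving out single arrays gave 11881 to 12941 in all, 4911 to 5320 higher and 6970 to 7621 lower, or 2820 to 3014 genes higher and 3523 to 3863 lower, and 3174 to 5502 against day 3 (4712 with all arrays) and 7805 to 8677 against day 1 (9049). With the replicate block, a pairing that the correlations do not bear out, 12284 were called and central myelin genes lower went from 11 to 7.

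A threshold of 2-fold beside the adjusted p left 3108 probe sets (2070 higher, 1038 lower), or 1287 and 484 genes. It left lower 5 GABA and glycine, 6 Hox, 3 axon guidance, 0 central myelin, 7 glutamate, 14 ion channel, 2 neurotrophic, 0 respiratory and 8 pan-neuronal genes, and higher 3 axon guidance, 7 efflux, 5 endothelial, 1 resting astrocyte, 4 lectican, 4 neurotrophic and 4 precursor genes. Regrouping the conflicting arrays left 10 axon guidance and 6 neurotrophic genes lower and 9 fibroblast and 7 precursor genes higher. Without the 3 arrays of high muscle signal there were 9 GABA and glycine, 8 axon guidance, 7 central myelin and 8 dorsal horn genes lower and 7 endothelial, 8 fibroblast and 5 precursor genes higher, with fewer arrays in the fit. Endothelial genes higher ranged from 10 to 20 and central myelin genes lower from 7 to 13 over single arrays left out. The genotype difference (1 probe set) gave 8 without a filter and 0 to 3 over single arrays left out.

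Cfp reversed to 0.53 when a gene's probe sets were averaged. Of 284 named differences, 29 lost their call under at least 1 alternative, 18 of them without the 3 arrays of high muscle signal. The median probe set differed by −0.08, and by −0.12 after quantile normalization. Signals below 4 limit what can be said of genes near the floor.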
